A study of Homo sapiens and Mus musculus with 16 samples.

Results

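The libraries described here were the 8 wild type libraries of a series of 16, 4 from the cell line MDA-MB-231 and 4 from the cell line CT26. They were chosen by the genotype in their labels, wild type for PD-L1, and not by any measured value. The other 8 libraries came from cells in which the PD-L1 gene (CD274) had been knocked out with a lentivirus carrying CRISPR, and they enter only as a check of whether an order between the lines held there. MDA-MB-231 is an established human line from a triple-negative breast cancer, a class defined by the lack of oestrogen receptor, progesterone receptor and HER2 amplification, and it was grown in DMEM. CT26 is an established mouse line from a chemically induced colon carcinoma of the BALB/c strain, and it was grown in RPMI 1640. Both media held fetal bovine serum, penicillin and streptomycin, and total RNA was purified from both lines on columns and sequenced. Species, tissue of origin, culture medium and cell line change together between the groups and cannot be told apart. Whether the wild type cells had received a control virus, and whether a line's 4 libraries were grown apart, is not stated in the labels. The spread between libraries may therefore be technical, and no p-value was computed between the lines.

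Carcinoma lines keep some traits of the tissue they came from and lose others. Epithelial cells hold together through cadherins, claudins and desmosomes and build keratin filaments, whereas cells that have gone through an epithelial to mesenchymal transition lose these contacts, build vimentin filaments and secrete matrix. MDA-MB-231 is widely used as a mesenchymal-like, invasive breast cancer model, and CT26 as an undifferentiated tumour that can be grown in mice with an intact immune system. PD-L1, the target of the series, is a tumour cell surface protein that engages PD-1 on T cells, and its level depends in part on interferon and inflammatory signals, so the state of those pathways in the unedited cells is the background on which the knockout was made.

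The deposited tables of the lines had been normalized apart, so a level in FPKM (fragments counted on a gene, scaled by transcript length and library depth) in one line was not compared with a level in the other. Genes were paired by symbol, written in capitals below, and each gene was placed by its percentile among the same 10628 paired genes within each library, where 100 is the most abundant transcript. A gene was called higher in a line when its 4 percentiles there lay above all 4 of the other line and the means differed by at least 25 percentile points. Of the 10628 genes, 1340 (12.6%) were called higher in MDA-MB-231 and 1328 (12.5%) higher in CT26, and these shares are the background for the counts given below. On a log2 scale with each library set to the same upper quartile, and a difference of at least 2 in place of the percentile points, the counts were 1562 and 956 with a pseudocount of 1, and 2095 and 1215 with a pseudocount of 0.1. Genes near the top of both rankings cannot differ by 25 points, so the call says little about very abundant transcripts.

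The 8 libraries were close to each other within a line and far apart between lines. Depth on the authors' scale was 17.7 to 22.6 M fragments in MDA-MB-231 and 14.9 to 21.5 M fragments in CT26, at which 1 fragment on a transcript of 2 kb is worth 0.0246 to 0.0373 FPKM. Spearman's rho over the ranked genes was 0.989 to 0.990 between MDA-MB-231 libraries and 0.992 to 0.994 between CT26 libraries. Between the lines it was 0.623 to 0.628 over the 16 pairs of libraries, given as a description since genes are not independent. The median gene differed by 13.4 percentile points between the lines and varied by 1.55 points (SD, n = 4) within MDA-MB-231 and 1.10 points within CT26. The 4 and 4 percentiles did not overlap for 85.7% of the genes, 2407 genes (22.6%) lay within 5 points of each other, and 620 were 50 points or more apart. The knockout libraries, used below only to ask whether an order between the lines was also there, stood apart from the wild type by an unequal amount: Spearman's rho between wild type and knockout libraries was 0.882 to 0.890 in MDA-MB-231 and 0.973 to 0.976 in CT26. Some genes that are abundant in wild type MDA-MB-231 were low in its knockout libraries, with mean percentiles of 99.4 and 32.9 for S100A4, 99.2 and 10.6 for CD74, 91.7 and 6.89 for BST2 and 84.9 and 8.97 for CDH11. Whether those cells differ from the wild type by more than the knockout, and whether they are the labelled line, was not tested, so each knockout gap below holds only for the libraries labelled as knockout.

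**Figure D1:**
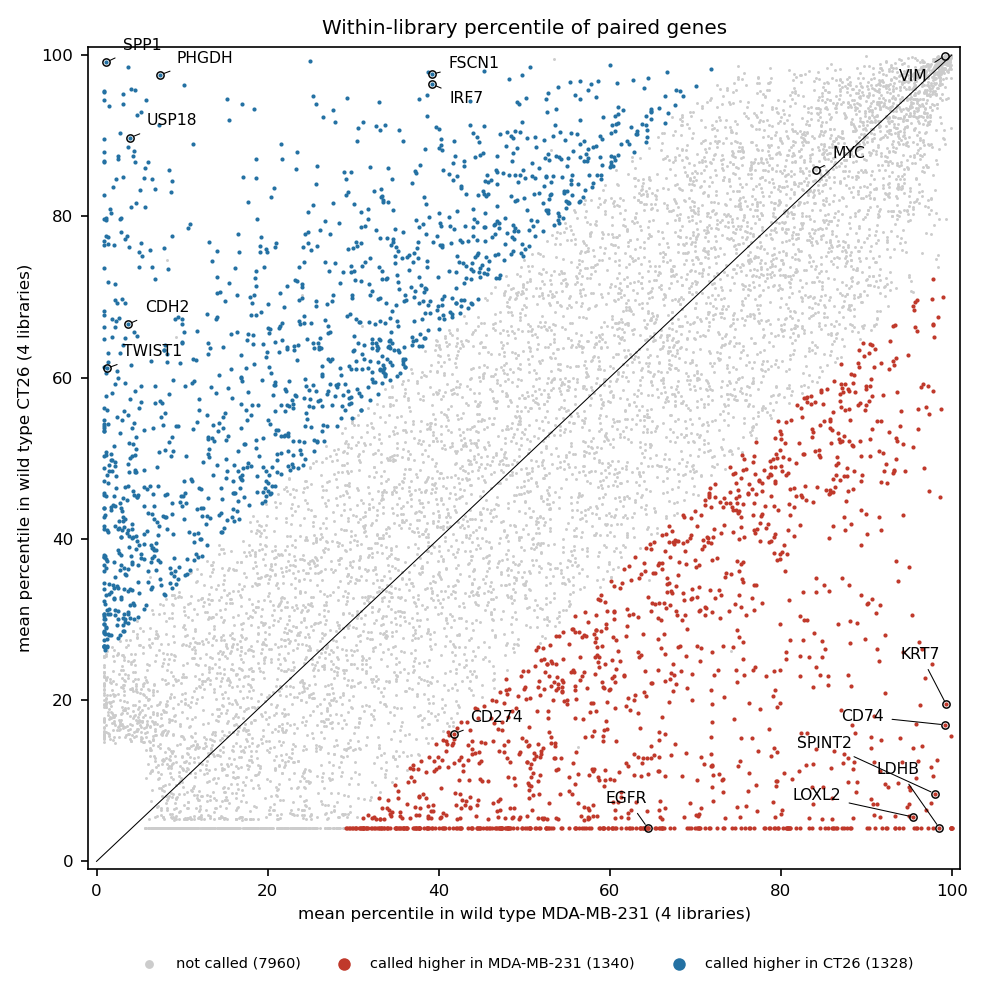
Mean within-library percentile of each of the 10628 paired genes in the 4 wild type MDA-MB-231 libraries (horizontal axis) and in the 4 wild type CT26 libraries (vertical axis), with called genes coloured and selected genes named. The 1340 genes called higher in MDA-MB-231 lie below the diagonal and the 1328 called higher in CT26 above it, and the row of points at a percentile of 4.16 in CT26 holds the genes listed at 0 in all 4 CT26 libraries.

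A value of exactly 0 was common and needs care. Of the ranked genes, 650 were listed at 0 in all 4 CT26 libraries and 99 in all 4 MDA-MB-231 libraries. Among those in CT26 were 6 of the 12 paired protein genes of the mitochondrial genome, MT-CO2, MT-CO3, MT-ATP6, MT-ATP8, MT-ND3 and MT-ND4L, which every respiring cell transcribes, while MT-CO1 stood at 3652, 3457, 3061 and 3095 FPKM in the same libraries. Such zeros can be failed estimates, so a gene at 0 is described below only as listed at 0, with no fold and no statement that it is absent. Of the 1340 calls in favour of MDA-MB-231, 275 rested on a gene listed at 0 in CT26, and of the 1328 in favour of CT26, 56 rested on a gene listed at 0 in MDA-MB-231. At 1 FPKM or more in all 8 libraries were 8362 pairs, and 710 and 996 of the calls in the respective directions lay among them. A pair that reached 1 FPKM in 1 line only passed the filter through that line and could hardly be called for the other. List counts below carry this limit.

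The markers of both lines were checked against their labels. VIM (vimentin) stood at 1095, 1120.4, 1112 and 1123 FPKM in MDA-MB-231 and at 3682, 3737, 3756 and 4035 FPKM in CT26, at mean percentiles of 99.2 and 99.9. CAV1 (caveolin-1) and the receptor kinase AXL, both mesenchymal markers, were also high in both lines, with mean percentiles of 98.3 and 94.0 in MDA-MB-231 and 98.7 and 97.5 in CT26. ESR1, the oestrogen receptor, reached at most 0.130 FPKM in MDA-MB-231, PGR, the progesterone receptor, was listed at 0 in all 8 libraries, and ERBB2 (HER2) had a mean of 24.6 ± 1.28 FPKM (SD, n = 4) at a mean percentile of 61.02. CD44, the hyaluronan receptor, had percentiles of 99.2 and 88.9.

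The colon origin of CT26 was not visible in its markers. Of 16 genes of colon and intestinal epithelium, 13 stayed below the filter of 1 FPKM in 4 of the 8 libraries, 2 were ranked and neither was called. CDX2, the transcription factor of the intestinal epithelium, stood at 0.0258, 0.0323, 0.0452 and 0.0630 FPKM in CT26, VIL1 (villin) and MUC2 (the goblet cell mucin) were listed at 0, and CDH17 (liver-intestine cadherin) reached 0.472, 0.448, 0.442 and 0.536 FPKM. CDKN2A, the locus of the p16 and ARF inhibitors that both lines are known to have lost, was listed at 0 in all 4 CT26 libraries and at 0.186, 0.0958, 0.394 and 0 FPKM in MDA-MB-231. Markers of other cell types were mostly below the filter: 12 of 15 leukocyte markers, 9 of 12 fibroblast and endothelial markers and 8 of 13 neural and melanocyte markers. PTPRC (CD45) was listed at 0 in CT26 and at 0.300, 0.00968, 0.0498 and 0.715 FPKM in MDA-MB-231, and CD3E was listed at 0 in all 8 libraries. Of the 9 such markers that were ranked, 3 were called, all higher in CT26, where CD14, the lipopolysaccharide co-receptor, stood at 17.3, 18.99, 16.01 and 16.2 FPKM, the collagen gene COL3A1 at 14.5, 15.8, 13.7 and 14.2 and the neurofilament gene NEFM at 21.7, 23.5, 22.2 and 24.1. The other 6 were not called. In MDA-MB-231, CSF1R was at a mean percentile of 19.3, COL1A1 at 35.98, PDGFRB at 10.7, MITF at 17.1, GFAP at 9.62 and NEFL at 2.04, and in CT26 these genes, in that order, were at 4.16, 57.7, 31.9, 16.3, 8.36 and 15.4.

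The most abundant transcripts overlapped between the lines. Of the 100 highest genes of each line 56 (56%) were shared, of the 500 highest 277 (55.4%), and of the 1000 highest 590 (59%). ACTB (beta actin) held rank 6 of the ranked transcripts in both lines, at 4957 ± 64.3 FPKM in MDA-MB-231 and 4665 ± 317 FPKM in CT26 (SD, n = 4). S100A6, a calcium-binding protein, FTH1 (ferritin heavy chain), EEF1A1 (translation elongation factor) and RACK1 (a ribosomal scaffold protein) were likewise among the 10 genes placed highest in both rankings. In CT26 the first place was held by LGALS1, the secreted lectin galectin-1, with 6577, 6712, 6387 and 6926 FPKM, and it held rank 43 in MDA-MB-231. In MDA-MB-231 the first 4 places went to the mitochondrial genes MT-ATP8, MT-CO2, MT-ND4L and MT-CO3, the same genes that were listed at 0 in CT26.

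Several abundant transcripts differed in rank without meeting the call. CTSL, the lysosomal protease cathepsin L, held rank 12 in CT26 at 3238, 3324, 3052 and 3189.7 FPKM and stood at rank 1068 in MDA-MB-231 at 104, 107, 105 and 107 FPKM. TMSB10, an actin-binding thymosin, was rank 7 in MDA-MB-231 and rank 191 in CT26. In these genes the 4 and 4 percentiles did not overlap, yet the gap was -9.96 and 1.72 percentile points (MDA-MB-231 minus CT26, here and below).

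Epithelial genes were placed higher in MDA-MB-231, although that line is known as mesenchymal-like. Of 20 epithelial adhesion, junction and transcription factor genes, 13 were ranked, and 9 of these were called higher in MDA-MB-231 and none in CT26. Their median gap was 43.0 points, against -0.366 over all ranked genes. With the knockout libraries 4 were called and the median gap was 11.96 points. Only 1 of the 13, itself called, was at 1 FPKM or more in all 8 libraries, and 5 were listed at 0 in CT26. Those 5 passed the filter through MDA-MB-231 alone and could be called only in its favour. Most of the other ranked genes were also very low in CT26 and could hardly be called for CT26. The other 7 genes of the list were below the filter. SPINT2, a membrane inhibitor of epithelial serine proteases, was the highest of the 13 in MDA-MB-231. It stood at 460.4, 428, 427 and 458 FPKM there and at 0.0527, 0.0660, 0.0462 and 0 FPKM in CT26. EPCAM, the epithelial adhesion molecule, stood at 25.7, 28.8, 28.6 and 27.3 FPKM in MDA-MB-231 and was listed at 0 in CT26, and CLDN4, a tight junction claudin, stood at 53.5, 52.4, 53.7 and 55.2 against 0, 0, 0.0288 and 0. Every MDA-MB-231 library lay above every CT26 library in these 3 genes. AP1M2 (an adaptor subunit of epithelial sorting), CLDN7 and DSP (desmoplakin) followed, at mean percentiles of 80.996, 60.4 and 52.2 in MDA-MB-231 and 4.16, 7.36 and 5.25 in CT26.

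CDH1 (E-cadherin), the defining epithelial cadherin, was not called. It stood at 1.53, 2.45, 6.03 and 6.597 FPKM in the 4 MDA-MB-231 libraries, with the first and second libraries well below the others, and it was listed at 0 in CT26. Its mean percentile of 18.1 ± 9.47 (SD, n = 4) in MDA-MB-231 left a gap of 13.96 points, short of the call. ESRP2, an epithelial splicing regulator, and ST14 (matriptase) were also low there, at 5.16 ± 0.421 and 2.62 ± 0.273 FPKM (SD, n = 4).

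Keratins gave the same picture. Of 15 keratin genes 10 were ranked, and 7 of them were called higher in MDA-MB-231 and none in CT26, with a median gap of 44.7 points. Of the 10, 4 were at 1 FPKM or more in all 8 libraries, and 3 of these were called. Another 4 were listed at 0 in CT26. KRT7, a simple-epithelium keratin, stood at 1355, 1404, 1397 and 1326 FPKM in MDA-MB-231 and at 2.79, 2.10, 2.94 and 2.67 in CT26. KRT19 stood at 327, 324, 318 and 311 FPKM in MDA-MB-231 and was listed at 0 in CT26, and KRT8 stood at 403, 397, 399 and 397 against 0.0302, 0.151, 0.0795 and 0.295. KRT18, the usual partner of KRT8 in the filament, was present in both lines, at 377 ± 8.81 and 33.7 ± 0.796 FPKM (SD, n = 4) and percentiles 97.7 and 69.8. Both genes have many processed copies in the genome, and how reads shared with such copies were assigned is not stated in the labels. KRT20, an intestinal keratin, was placed higher in CT26, at 1.79, 1.85, 1.78 and 1.69 FPKM, against at most 0.0370 FPKM in MDA-MB-231, a gap of -15.8 points that does not meet the call. KRT80 and KRT17 were not called either.

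The mesenchymal genes did not lean one way as a list but split by member. Of 20, 19 were ranked, and 3 were called higher in MDA-MB-231 and 6 in CT26, with a median gap of -0.567. Those higher in CT26 were mostly transcription factors of the mesenchymal programme. TWIST2 stood at 88.3, 88.7, 82.0 and 88.1 FPKM in CT26 and was listed at 0 in MDA-MB-231, and TWIST1 stood at 25.2, 23.04, 22.5 and 24.98 against 0, 0, 0 and 0.0649. PRRX1, a homeobox factor of limb and facial mesenchyme, stood at 33.6 ± 1.996 FPKM in CT26 (SD, n = 4) and reached at most 0.299 FPKM in MDA-MB-231. Its relative PRRX2 was among the 15 largest differences in favour of CT26, at 158, 160.1, 147 and 173 FPKM against 0.290, 0.199, 0.205 and 0.172. CDH2 (N-cadherin), the cadherin that replaces E-cadherin in the transition, stood at 29.97, 30.3, 28.9 and 29.2 FPKM in CT26 and at 0.272, 0.417, 0.310 and 0.616 in MDA-MB-231. The 3 genes higher in MDA-MB-231 included CDH11 (cadherin-11), with 69.8, 70.5, 72.7 and 83.8 FPKM against 0.0321, 0.0268, 0.0469 and 0.0131, and MSN (moesin, a linker of membrane and actin), with 167, 170.0, 170.4 and 182 against 4.23, 5.05, 5.41 and 4.17. The remaining one, TAGLN (transgelin), named after its values were seen, had a gap of 25.8 points, and its call was lost without the second or the third MDA-MB-231 library. The gap of CDH11 was 75.7 points, and 1.51 in the knockout libraries.

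**Figure D2:**
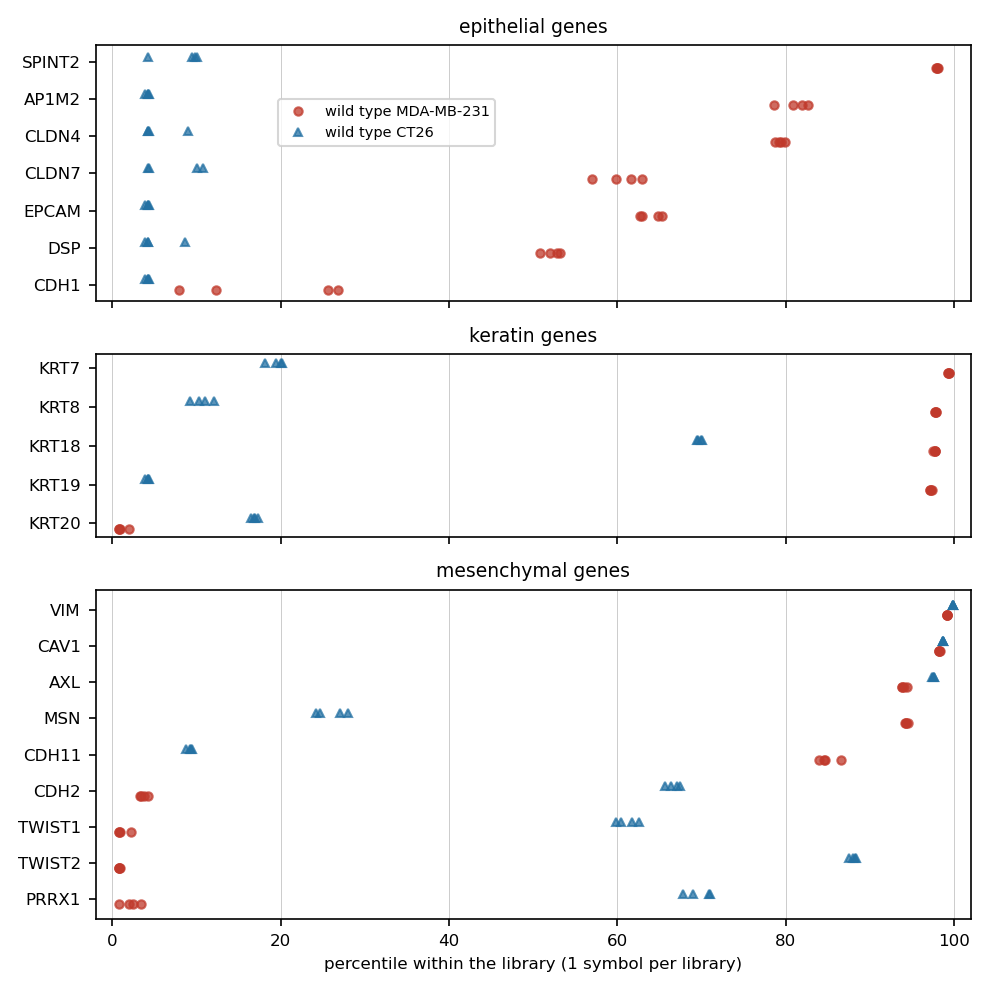
Within-library percentile of epithelial, keratin and mesenchymal genes in each of the 4 wild type MDA-MB-231 libraries (circles) and the 4 wild type CT26 libraries (triangles). Apart from KRT20, the epithelial and keratin genes lie to the right in MDA-MB-231, with means of 18.1 for CDH1 and from 52.2 (DSP) to 99.4 (KRT7) for the others. KRT20, TWIST1, TWIST2, PRRX1 and CDH2 lie to the right in CT26.

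Of breast genes, MUC1, a transmembrane mucin of luminal epithelium, stood at 90.5, 83.6, 75.2 and 72.9 FPKM in MDA-MB-231 and 0.557, 0.974, 0.388 and 0.976 in CT26, and TFF1, an oestrogen-responsive trefoil factor, at 17.5, 19.3, 14.2 and 17.1 against 0.195, 0, 0.171 and 0. Both were called higher in MDA-MB-231, and both turned direction in the knockout libraries, where the gaps were -8.67 and -4.11 points. FOXA1, a pioneer factor of luminal breast and endodermal cells, was called higher in CT26, at 7.08, 7.62, 7.14 and 7.70 FPKM against at most 0.0275. GATA3, a luminal factor, stood at percentiles 30.7 and 17.2 and was not called. Of the 16 breast genes 10 were ranked.

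The matrix that the lines transcribed was different in its make-up. Of 24 collagen and matrix genes 19 were ranked, 9 were called higher in MDA-MB-231 and 5 in CT26, both above the background shares. COL1A2, a chain of the fibril-forming type I collagen, stood at 246, 243, 243 and 244 FPKM in CT26 and 2.35, 2.21, 1.23 and 2.53 in MDA-MB-231, and SPARC, a collagen-binding secreted protein, at 137, 146, 134 and 145 against 0.396, 1.54, 1.07 and 0.352. COL1A1, the other chain of the same collagen, differed less, at 21.1 ± 1.19 and 9.81 ± 1.33 FPKM (SD, n = 4) with a gap of -21.8 points, and was not called. In MDA-MB-231 the higher genes included the matrix crosslinkers: LOXL2 at 211, 199, 213 and 216 FPKM against 0.0414, 0, 0 and 0, and LOX (lysyl oxidase) at 44.6, 43.5, 45.7 and 43.4 FPKM, listed at 0 in CT26. COL13A1, a transmembrane collagen, and TNC (tenascin-C) were at mean percentiles of 70.6 and 72.5 in MDA-MB-231 and listed at 0 in CT26. COL5A1 and COL4A2 were not called, with percentiles of 92.9 and 76.5 in MDA-MB-231 and 71.9 and 67.6 in CT26.

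Integrin and laminin genes were called more often in favour of MDA-MB-231 in the wild type. Of 21 integrin and laminin genes 16 were ranked, 5 were called higher in MDA-MB-231 and 1 in CT26. With the knockout libraries the counts were 1 and 3, and the median gap was 4.89 points against 15.4. LAMB3 and LAMA3, chains of laminin-332, stood at 169 ± 4.96 and 23.4 ± 3.51 FPKM in MDA-MB-231 and at 0.364 ± 0.179 and 1.15 ± 0.108 FPKM in CT26 (SD, n = 4). ITGB4, the integrin chain that binds this laminin in hemidesmosomes, stood at 129.6, 129, 113 and 126 FPKM against 5.07, 7.11, 7.33 and 8.01. All MDA-MB-231 libraries lay above all CT26 libraries in these genes. ITGB1, the common beta chain, was abundant in both lines, at percentiles 98.2 and 90.7. The subunit called higher in CT26 was ITGB7, a chain known from lymphocyte homing receptors, at 203, 227, 226 and 216 FPKM against 0.523, 0.856, 0.450 and 0.212, 1 of the 15 largest gaps in that direction.

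The plasminogen system followed the same order. Of 20 matrix protease and inhibitor genes 14 were ranked, 5 were called higher in MDA-MB-231 and 1 (ADAMTS1) in CT26. PLAU, the urokinase that activates plasminogen, stood at 177, 204, 177 and 194 FPKM in MDA-MB-231 and at 0, 0, 0.0435 and 0.0303 in CT26, and PLAT, the tissue-type activator, at 239, 233, 252 and 258 against 4.92, 5.13, 5.45 and 4.96. Every MDA-MB-231 library lay far above every CT26 library for both activators. TIMP3, a metalloprotease inhibitor, stood at 56.0 ± 1.84 FPKM in MDA-MB-231 (SD, n = 4) and at most 0.0139 FPKM in CT26. The lysosomal proteases CTSB and CTSD were high in both lines, with percentiles from 94.7 to 99.6.

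S100 and annexin genes were abundant in both lines, with median percentiles of 96.3 in MDA-MB-231 and 98.2 in CT26 over the 15 ranked of 18 genes. Of these, 5 were called higher in MDA-MB-231 and 1 in CT26. ANXA6, a membrane-binding annexin, stood at 92.9, 100.5, 104 and 92.9 FPKM in MDA-MB-231 and 0.117, 0.0292, 0.0615 and 0.0285 in CT26, and S100A16 at 246, 256, 246 and 261 against 3.27, 1.48, 3.15 and 2.48. S100A1 was the member higher in CT26, at 53.4, 58.7, 56.3 and 59.1 FPKM against 0.479, 0.377, 0.577 and 0.640. S100A4, S100A6 and S100A11, which are linked to motility and membrane repair, were among the most abundant transcripts of both lines, with no mean percentile under 98.9. The gap of S100A4 was -0.567 points in the wild type and -67.04 in the knockout libraries, and that of ANXA8 turned from 36.8 to -33.98.

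The gene with the largest gap in favour of MDA-MB-231, outside the mitochondrial genome, was LDHB, the lactate dehydrogenase subunit that favours the use of lactate. Human LDHB (hg38 chromosome 12, 21635342 to 21757857, minus strand, per GENCODE 29) stood at 563, 669.7, 619 and 639 FPKM, and mouse Ldhb (mm10 chromosome 6, 142490249 to 142507957 in the deposited table) was listed at 0 in all 4 CT26 libraries. SAA1 (an acute phase protein), KRT19, IGFBP7 (a secreted growth factor binding protein), DKK1 (a secreted Wnt inhibitor), BMP4 (a bone morphogenetic protein) and COTL1 (an actin-binding protein) came next, at percentiles between 95.6 and 97.8 in MDA-MB-231, and all of these were also listed at 0 in CT26. S100A2 and OCIAD2 completed the 15 genes and were above 0 in some CT26 libraries, at up to 0.420 and 0.228 FPKM. DKK1, as an example of the group, stood at 207, 237, 228 and 247 FPKM and BMP4 at 230.3, 222, 233 and 223. LDHB, DKK1 and COTL1 were as far apart in the knockout libraries, with gaps of 93.5, 93.2 and 91.8 points, whereas the gaps of SAA1 and KRT19 were 17.95 and 22.8 there. In the human table the loci of LDHB, SAA1, DKK1, COTL1 and IGFBP7 overlap or are merged with those of other genes, so their levels are less certain than that of KRT19, whose locus is its own.

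The gene with the largest gap in favour of CT26 was SPP1, which encodes the secreted phosphoprotein osteopontin, a ligand of integrins and CD44. Mouse Spp1 (mm10 chromosome 5, 104435118 to 104441050 in the deposited table) stood at 939, 927, 906 and 926 FPKM, rank 95 of the ranked genes. Human SPP1 (hg38 chromosome 4, 87975650 to 87983426, plus strand) stood at 0, 0.0445, 0 and 0 FPKM, rank 10482. CD34, a sialomucin known from blood stem cells and endothelium, stood at 599, 557, 551 and 557 FPKM in CT26 and 0.441, 0.473, 0.364 and 0.326 in MDA-MB-231. TMEM176A and TMEM176B, neighbouring membrane protein genes known from myeloid cells, stood at 204 ± 15.7 and 206 ± 6.65 FPKM in CT26 (SD, n = 4) and were listed at 0 in MDA-MB-231. The pair shares a locus in both tables, so their reads may not be separable, and the human loci of CD34 and CLDN6 are shared with other genes as well. CLDN6, an embryonic claudin, stood at 153, 161, 147 and 151 FPKM against 0, 0, 0.0488 and 0.0407, an order opposite to that of CLDN4 and CLDN7. ADH7 (an alcohol dehydrogenase) was at 98.8 ± 2.39 FPKM in CT26 (SD, n = 4) and listed at 0 in MDA-MB-231. SERPINF1 (a secreted anti-angiogenic serpin) and PTGS1 (the constitutive cyclooxygenase) stood at 169 ± 11.6 and 132 ± 3.57 FPKM in CT26 and at 1.07 ± 0.245 and 0.754 ± 0.131 in MDA-MB-231 (SD, n = 4).

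For 3 of these genes the human value is uncertain. BOLA2 (an iron-sulfur chaperone), U2AF1 (a splicing factor) and EIF3C (a translation initiation subunit) were called higher in CT26 at 171 ± 9.14, 192 ± 6.52 and 211 ± 5.27 FPKM (SD, n = 4), and BOLA2 was listed at 0 in MDA-MB-231 while U2AF1 and EIF3C reached at most 0.279 and 0.800 FPKM there. Each has a near-identical copy in the human annotation, and the authors' counting could have split or dropped the reads they share.

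Inflammatory genes differed in both directions, and the interferon-stimulated list leaned to CT26. PD-L1 itself was placed higher in MDA-MB-231. CD274 (hg38 chromosome 9, 5450503 to 5470566, plus strand; mm10 chromosome 19, 29367455 to 29388095 in the deposited table) stood at 12.3, 11.2, 12.5 and 12.8 FPKM in MDA-MB-231 and Cd274 at 1.504, 1.49, 1.43 and 1.23 FPKM in CT26. The percentiles were 41.8 ± 1.16 and 15.8 ± 0.462 (SD, n = 4), without overlap, and the gap of 25.96 points only just passed the 25 that a call needs. In both lines the gene lay in the lower part of the ranking.

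Of 20 checkpoint ligand genes 12 were ranked, 3 were called higher in MDA-MB-231 and 2 in CT26. NT5E (CD73), the ectoenzyme that makes adenosine, stood at 151, 162, 160.2 and 175 FPKM in MDA-MB-231 and was listed at 0 in CT26. LGALS9 (galectin-9, a ligand of TIM-3) had the opposite order, at 126, 119.5, 122 and 129 FPKM in CT26 against 3.82, 3.33, 3.27 and 2.74 in MDA-MB-231, and CD80, a ligand of CD28 and CTLA-4, stood at 6.20, 5.32, 5.68 and 5.28 FPKM in CT26 and was listed at 0 in MDA-MB-231. The ligands PVR, CD47 and NECTIN2 were placed in the upper part of both rankings and were not called, with percentiles of 76.4 and 75.5 for PVR. TNFRSF14, the fifth called gene, was at percentiles 50.2 and 14.9.

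Few class I antigen presentation genes were called. Their median percentiles were 90.9 in MDA-MB-231 and 89.7 in CT26, and a call is harder to meet so high in both rankings. All 15 class I genes on the list (the light chain, peptide loading and immunoproteasome genes, without the HLA and H2 heavy chains, which do not pair by symbol) were ranked, and 13 of them were not called. B2M, the light chain, stood at 2064 ± 110.1 and 1563 ± 51.9 FPKM (SD, n = 4), rank 30 and rank 44. TAP1 and TAP2, the chains of the peptide transporter, had gaps of 6.21 and 7.52 points and were not called. NLRC5, the class I transactivator, and PSMB9, an immunoproteasome subunit, were called higher in MDA-MB-231 (13.3%, near the background of 12.6%). NLRC5 stood at 22.95, 20.4, 17.4 and 21.4 FPKM in MDA-MB-231 and 3.09, 2.56, 4.13 and 6.05 in CT26. PSMB9 stood at 71.1, 73.0, 70.8 and 66.9 FPKM in MDA-MB-231 and 9.09, 7.62, 6.46 and 9.85 in CT26. PSMB8 and PSMB10, also immunoproteasome subunits, had gaps of 21.6 and -9.73 points and were not called.

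The listed class II genes were mostly placed higher in MDA-MB-231. The list held the invariant chain, the transactivator and pathway genes, and the class II chains themselves were not on it. Of the 8 genes on the list 5 were called higher in MDA-MB-231 and 1 in CT26, with a median gap of 43.4 points. CD74, the invariant chain, stood at 1168, 1158, 1109.7 and 1101 FPKM in MDA-MB-231, rank 83, and at 2.06, 1.77, 1.35 and 1.98 FPKM in CT26, rank 8855. CIITA, the class II transactivator, stood at 12.2, 11.6, 14.2 and 14.7 FPKM and CTSS (cathepsin S, which trims the invariant chain) at 25.4, 28.1, 26.5 and 26.5 FPKM in MDA-MB-231, and both were listed at 0 in CT26. The RFX complex, which binds class II promoters, was uneven: RFX5 and RFXANK were at percentiles 66.9 and 88.4 in MDA-MB-231 and 19.7 and 16.96 in CT26, while RFXAP was at 8.70 in MDA-MB-231 and 83.1 in CT26. RFXANK shares its locus with other genes in both tables, so its reads may not be separable from theirs. IFI30 and LGMN, lysosomal enzymes, were not called. In the knockout libraries the gap of CD74 was -2.30, that of CTSS -0.395 and that of CIITA 1.76 points, and 2 genes of the list were called in each direction.

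Interferon-stimulated genes were placed higher in CT26. Of 38 on the list 36 were ranked, and 17 of them (47.2%) were called higher in CT26 and none in MDA-MB-231, beside background shares of 12.5% and 12.6%. Their median gap was -24.7 points, with median percentiles of 40.05 in MDA-MB-231 and 75.1 in CT26. On the log2 scale with a pseudocount of 1 the counts were 15 and 1. USP18, which removes the ISG15 modifier, stood at 106, 91.7, 96.9 and 105 FPKM in CT26 and 0.333, 0.504, 0.530 and 0.566 in MDA-MB-231. XAF1, a pro-apoptotic interferon target, stood at 167, 149, 154 and 167 FPKM against 3.92, 2.80, 3.49 and 4.52, and ZBP1, a sensor of Z-form nucleic acid, at 56.9, 49.7, 55.8 and 56.9 against 0, 0.115, 0 and 0.129. The groups were far apart in all 3. CMPK2 (a mitochondrial nucleotide kinase), OAS3 (an antiviral synthetase) and PARP9 (an ADP-ribosyltransferase) followed, at percentiles 76.2, 82.4 and 72.0 in CT26 and 3.85, 33.3 and 23.4 in MDA-MB-231.

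Not all of the programme was low in MDA-MB-231. ISG15 (the ubiquitin-like modifier itself) stood at 249, 247, 239 and 248 FPKM in MDA-MB-231 and 370.1, 335, 351 and 372 in CT26, percentiles 96.2 and 97.6. BST2 (tetherin) and IFITM3, a block to virus entry, were at percentiles 91.7 and 96.0 in MDA-MB-231 and 98.9 and 99.4 in CT26. All 4 CT26 libraries lay above all 4 MDA-MB-231 libraries for these genes too, with gaps well short of 25 points. The list was not uniform: IFIT2, IFIT3, MX1, IFI27, GBP2, GBP4 and TRIM25, named here after their values were seen, were placed higher in MDA-MB-231 by 1.78 to 14.4 points and were not called. IFITM1, also named after its values were seen, stood at 10.6, 10.4, 10.4 and 635 FPKM in MDA-MB-231 and 80.9, 87.4, 90.3 and 96.8 in CT26, so the fourth MDA-MB-231 library alone kept it from the call. In the knockout libraries 24 of the 36 were called higher in CT26 and none in MDA-MB-231, and the gap of BST2 was -91.3 points.

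**Figure D3:**
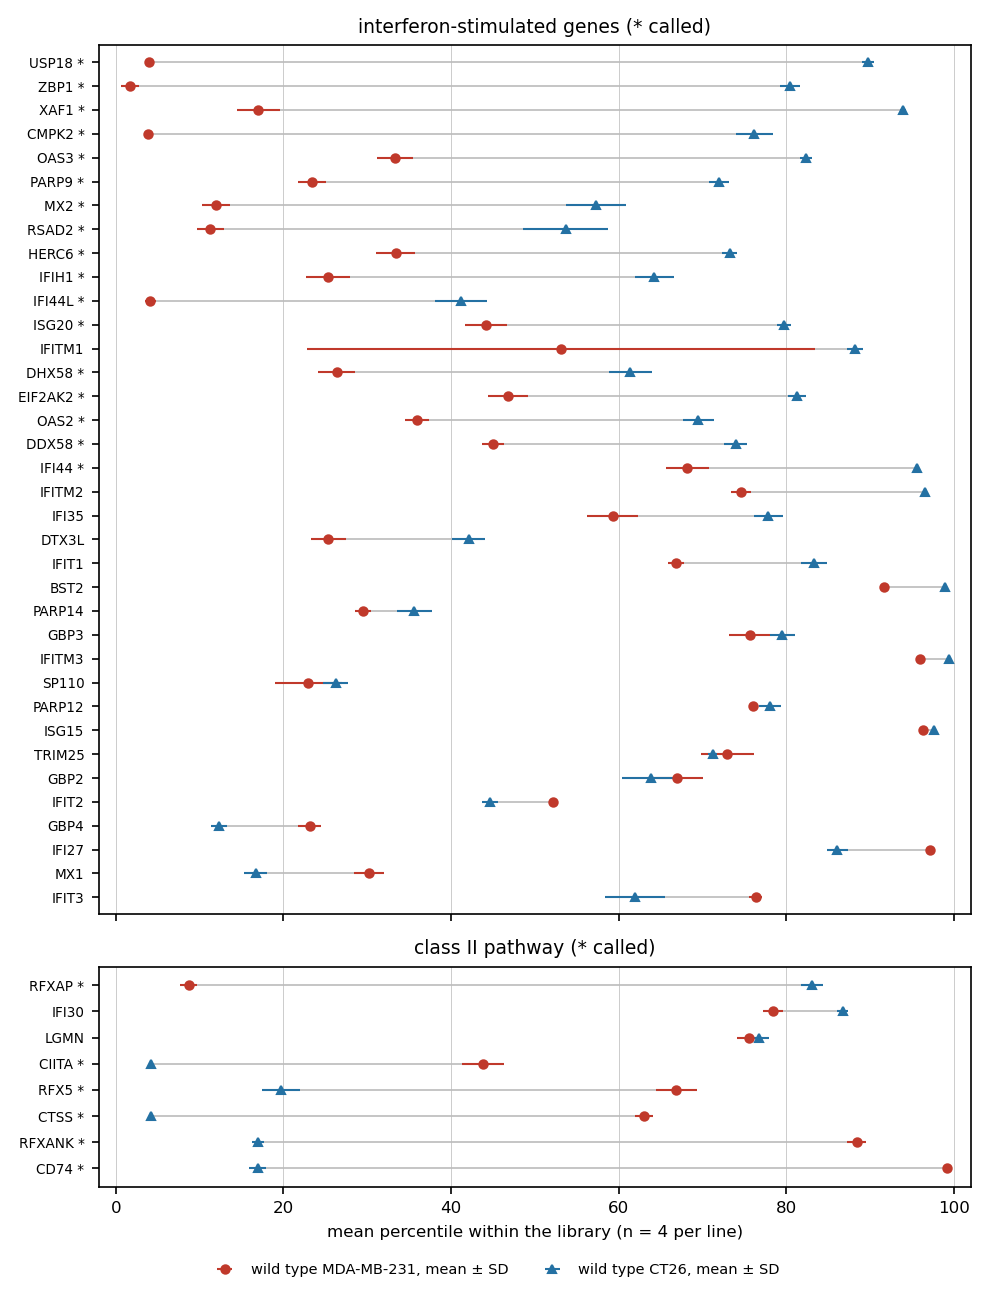
Mean within-library percentile (with SD over 4 libraries) of the 36 ranked interferon-stimulated genes and the 8 listed class II pathway genes (without the class II chains) in wild type MDA-MB-231 (circles) and CT26 (triangles), ordered by the difference. The interferon-stimulated genes lie to the right in CT26 for all 17 called genes, and CD74, CIITA, CTSS, RFX5 and RFXANK lie to the right in MDA-MB-231.

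The genes that carry the interferon signal did not lean one way. Of 21 receptor, kinase, STAT and IRF genes 19 were ranked, 4 were called higher in CT26 and 1 in MDA-MB-231, with a median gap of 0.214 points. Where both tables gave status OK, 4 genes were called in each direction. IRF7, the factor that amplifies type I interferon, stood at 241, 233, 252 and 273 FPKM in CT26 and 11.5, 10.9, 10.2 and 12.03 in MDA-MB-231, and JAK2, a kinase bound to cytokine receptors, at 13.2, 13.2, 14.1 and 13.6 against 1.03, 1.16, 1.47 and 1.12. TYK2, a kinase of the same family, had the opposite order, at 121, 127, 126 and 109 FPKM in MDA-MB-231 against 4.56, 4.65, 4.94 and 5.27 in CT26. IRF5 varied in CT26, at 17.5, 9.16, 13.97 and 6.23 FPKM, yet stayed above the MDA-MB-231 values of 1.35, 1.16, 1.17 and 1.73.

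NF-kappaB genes leaned to MDA-MB-231. Of 20 on the list 18 were ranked, 8 were called higher in MDA-MB-231 and 3 in CT26, with a median gap of 21.5 points. ICAM1, an adhesion molecule of leukocyte contact, stood at 56.3, 47.6, 54.9 and 59.8 FPKM in MDA-MB-231 and 0.0466, 0.0569, 0.0921 and 0.0555 in CT26, and BIRC3, an inhibitor of apoptosis, at 44.1, 42.6, 42.6 and 44.2 against 0.0997, 0.126, 0.450 and 0.542. TNIP1 and BCL3, a feedback inhibitor and a nuclear co-regulator, were at percentiles 95.3 and 79.9 in MDA-MB-231 and 30.5 and 19.6 in CT26. The subunits were split. RELB was called higher in MDA-MB-231, at percentiles 63.6 and 35.7, and NFKB1 higher in CT26, at 52.2 in MDA-MB-231 and 78.2 in CT26. REL was not called, with a gap of -12.9 points, and these subunits are named after their values were seen. RELA and NFKB2 were not called either, at percentiles 88.6 and 79.6 in MDA-MB-231 and 70.2 and 81.4 in CT26. PTGS2, the inducible cyclooxygenase, had the opposite order, at 66.9, 62.0, 59.4 and 69.0 FPKM in CT26 and at most 1.01 in MDA-MB-231. VCAM1, another adhesion molecule, stood at 28.4, 25.8, 22.7 and 27.02 FPKM in CT26 and at most 0.175 in MDA-MB-231. In the knockout libraries 1 member was called higher in MDA-MB-231 and 4 in CT26.

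Cytokine genes leaned to MDA-MB-231 as well. Of 33, 23 were ranked, 12 were called higher in MDA-MB-231 and 4 in CT26, with a median gap of 31.0 points. IL6 stood at 233, 237, 205 and 222 FPKM in MDA-MB-231 and 0.350, 0.299, 0.418 and 0 in CT26. CSF2 (GM-CSF) stood at 111, 125, 112 and 117 FPKM in MDA-MB-231 and at most 0.109 in CT26. CSF3 (G-CSF) stood at 41.3, 34.5, 31.7 and 34.6 FPKM in MDA-MB-231 and at most 0.110 in CT26. These secreted growth factors of myeloid cells, like IL6, were far above the CT26 values in every MDA-MB-231 library. TGFB2, a transforming growth factor, stood at 54.7 ± 5.78 FPKM against 0.0635 ± 0.0319 (SD, n = 4). CXCL10, an interferon-induced chemokine that draws T cells, had the opposite order, at 62.9, 43.9, 46.5 and 50.2 FPKM in CT26 and 2.09, 2.45, 2.05 and 1.91 in MDA-MB-231. CSF1, the macrophage growth factor, was at percentiles 93.6 and 93.7. In the knockout libraries the gaps of IL6, CSF2 and CSF3 were -3.76, 8.64 and 10.1 points, and 6 and 7 members of the list were called for MDA-MB-231 and CT26.

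Genes of the EGF family were called only in favour of MDA-MB-231, though not all of them. Of 12 EGF family genes 10 were ranked, 5 were called higher in MDA-MB-231 and none in CT26, with a median gap of 28.4 points. EGFR stood at 26.3, 28.7, 27.2 and 30.5 FPKM in MDA-MB-231 and was listed at 0 in all 4 CT26 libraries. Its ligands TGFA and HBEGF stood at 38.1 ± 2.47 and 35.8 ± 0.975 FPKM in MDA-MB-231 and 2.64 ± 0.0805 and 6.65 ± 0.398 in CT26, and NRG1, a ligand of the ERBB3 and ERBB4 receptors, at 64.6 ± 3.58 against 6.21 ± 0.937 (SD, n = 4). ERRFI1, a feedback inhibitor of EGFR, was at percentiles 89.0 and 56.7. EREG and ERBB3 were not called, and neither were BTC and EGF, named after their values were seen, with gaps of -5.66 and -8.35 points. With the knockout libraries 2 members were called. The gaps of ERRFI1 and TGFA were -9.69 and 6.26 points in the knockout libraries.

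Of 22 other receptor tyrosine kinases 14 were ranked, 4 were called higher in MDA-MB-231 and 1 in CT26. The collagen receptors of the DDR pair were placed in opposite orders: DDR1, the epithelial one, stood at 62.4, 51.2, 41.4 and 56.7 FPKM in MDA-MB-231 and 10.01, 9.13, 10.2 and 11.2 in CT26, and DDR2, the mesenchymal one, at 0.163, 0.171, 0.131 and 0.220 against 50.4, 49.96, 49.5 and 45.3. FGFR1 and MST1R (RON) were higher in MDA-MB-231, at percentiles 85.8 and 64.3 against 45.7 and 6.28. MET, the receptor of hepatocyte growth factor, and EPHA2 were not called, and MET stood at 32.5 ± 3.60 and 33.8 ± 1.95 FPKM (SD, n = 4), percentiles 68.1 and 69.8.

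Few RAS to ERK genes were called. All 24 were ranked, 19 were not called, 2 were called higher in MDA-MB-231 and 3 in CT26, below the background share in the first direction and equal to it in the second. NRAS, a small GTPase of the pathway, stood at 145, 126, 138 and 169.6 FPKM in CT26 and 26.4, 23.5, 25.7 and 25.2 in MDA-MB-231, without overlap, while HRAS was at percentiles 95.4 and 89.2 and was not called. Of the transcription factors downstream of ERK, ETV4 was higher in CT26, at percentiles 48.2 and 85.2, and ETV1 in MDA-MB-231, at 40.9 and 14.9.

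Of 22 p53 targets and cell cycle inhibitors 19 were ranked, none was called higher in MDA-MB-231 and 4 (AEN, PHLDA3, SESN2 and ZMAT3) were called higher in CT26. AEN, an apoptosis-enhancing nuclease, stood at 83.1, 98.3, 87.3 and 95.4 FPKM in CT26 and 11.4, 11.4, 10.9 and 12.1 in MDA-MB-231, and PHLDA3, an inhibitor of AKT, at 77.9, 70.7, 72.7 and 81.1 against 18.3, 17.5, 17.5 and 17.3. The best known targets CDKN1A (p21), MDM2 and BAX were not called, with gaps of 4.16, -2.70 and -2.31 points.

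Proliferation genes were high in both lines. Of 30, 28 were ranked at median percentiles of 90.3 and 90.2, 24 were not called, and 2 were called in each direction. PCNA, the replication clamp, stood at percentiles 93.9 and 96.0. Among the D-type cyclins CCND1 was abundant in both, whereas CCND2 stood at 79.3, 75.9, 132 and 232 FPKM in CT26 and 0.140, 0.132, 0.253 and 0.104 in MDA-MB-231. The CT26 libraries differed widely from each other in this gene, yet all lay above MDA-MB-231. CDK4 held rank 48 in CT26 at 1419 ± 38.6 FPKM and rank 652 in MDA-MB-231 at 160.0 ± 4.71 FPKM (SD, n = 4), a gap of -5.73 points. CDC6, which loads the replication helicase, and MKI67 were called higher in MDA-MB-231, at percentiles 79.4 and 82.3 against 46.9 and 56.2. MYC stood at 71.9, 70.2, 68.5 and 69.9 FPKM in MDA-MB-231 and 73.1, 77.2, 72.8 and 74.8 FPKM in CT26, percentiles 84.1 and 85.7, and of its 14 family and partner genes 12 were ranked and 1 (MXD4) was called.

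Transcripts of metabolic enzymes differed in both directions. The glycolytic enzymes that are most abundant were close in rank: LDHA, PKM and ENO1 lay between ranks 20 and 62 in both lines. Of 30 glycolysis and hypoxia genes 27 were ranked, 7 were called higher in MDA-MB-231 and 1 in CT26. The lactate transporters were split: SLC16A3 (MCT4, which mainly exports lactate) stood at 416, 387, 429.6 and 441 FPKM in MDA-MB-231 and 25.5, 26.6, 29.004 and 30.5 in CT26, and SLC16A1 (MCT1) at 0.119, 0.214, 0.460 and 0.189 against 71.9, 71.8, 67.4 and 70.5. Both transporters were far apart in opposite directions, and LDHB, which acts on the same metabolite, was listed at 0 in CT26. PFKP, the platelet form of phosphofructokinase, stood at 209.9 ± 14.1 FPKM against 16.4 ± 1.40 (SD, n = 4). EGLN3 and ADM, known targets of hypoxia-inducible factor, were at 21.9 ± 0.272 and 23.1 ± 1.20 FPKM in MDA-MB-231 (SD, n = 4) and listed at 0 in CT26, and the gap of EGLN3 turned to -5.71 points in the knockout libraries.

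Serine synthesis was placed higher in CT26. Of 17 serine and one-carbon genes 14 were ranked, and 6 of them (42.9%) were called higher in CT26 and none in MDA-MB-231, with a median gap of -20.2 points. PHGDH (hg38 chromosome 1, 119648411 to 119744226, plus strand; mm10 chromosome 3, 98313170 to 98339990 in the deposited table), the first enzyme of serine synthesis from glycolysis, stood at 353, 345, 321 and 369.9 FPKM in CT26 and 2.29, 0.518, 0.773 and 1.84 in MDA-MB-231. PSAT1, the second enzyme, stood at 417, 396, 391.8 and 423 FPKM in CT26 and 28.98, 29.7, 31.6 and 32.3 in MDA-MB-231. PSPH, the last, stood at 267, 293, 253 and 303 FPKM in CT26 and 21.4, 21.2, 25.5 and 22.7 in MDA-MB-231. All 3 steps were thus placed higher in CT26 without overlap, with the widest gap at the first. The mitochondrial folate enzymes MTHFD2 and ALDH1L2 were at percentiles 92.7 and 67.4 in CT26 and 60.99 and 2.64 in MDA-MB-231. The cytosolic MTHFD1 was not called, at 85.9 and 83.9. The gap of PHGDH was -19.7 points in the knockout libraries, where 3 members were called higher in CT26 and 1 in MDA-MB-231.

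Sterol synthesis was also placed higher in CT26. Of 25 cholesterol and fatty acid synthesis genes 22 were ranked, 7 (31.8%) were called higher in CT26 and 1 in MDA-MB-231, with a median gap of -18.4 points. SQLE (squalene epoxidase), an oxygenase of the sterol path, stood at 131, 129, 124 and 128 FPKM in CT26 and 4.41, 6.69, 8.87 and 5.78 in MDA-MB-231. Its lowest CT26 library lay far above its highest MDA-MB-231 library. HMGCS1, MVK and SREBF2, the transcription factor of the pathway, were at percentiles 84.2, 80.9 and 88.2 in CT26 and 36.9, 31.7 and 40.4 in MDA-MB-231. ACLY, which supplies acetyl-CoA, was not called, at percentiles 86.7 and 89.1. In the knockout libraries 2 members were called in each direction.

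**Figure D4:**
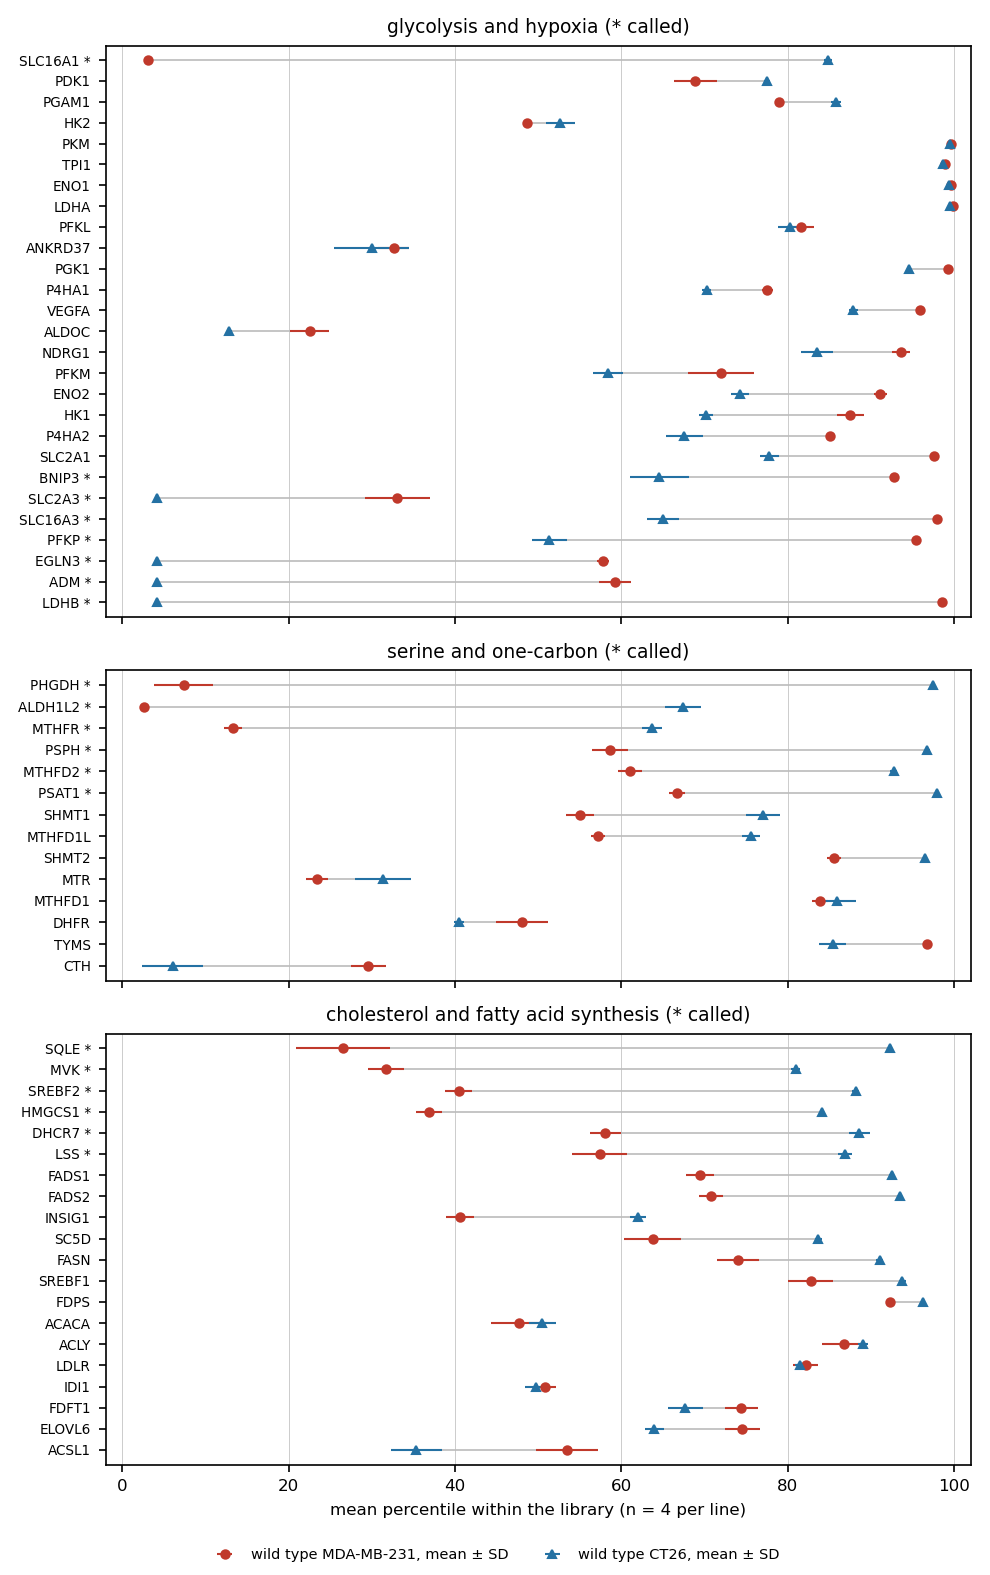
Mean within-library percentile (with SD over 4 libraries) of ranked genes of glycolysis and hypoxia, serine and one-carbon metabolism, and cholesterol and fatty acid synthesis in wild type MDA-MB-231 (circles) and CT26 (triangles), ordered by the difference within each list. PHGDH lies at 97.5 in CT26 and 7.40 in MDA-MB-231, and LDHA, PKM and ENO1 lie together at the far right in both lines.

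Of 22 NRF2, glutathione and aldehyde dehydrogenase genes 19 were ranked, 4 were called higher in MDA-MB-231 and 2 in CT26. NQO1, a quinone reductase and a standard target of NRF2, stood at 218, 238, 219 and 221 FPKM in MDA-MB-231 and 1.57, 1.92, 2.17 and 1.68 in CT26. HMOX1 (haem oxygenase) and GSR (glutathione reductase), targets of the same factor, had the opposite order, at percentiles 73.1 and 88.7 in CT26 and 42.1 and 47.9 in MDA-MB-231. KEAP1, the inhibitor of NRF2, was at 89.1 and 61.3, and GPX4 and GSTP1 were not called.

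The common machinery of the cell was placed close together. None of the 33 ranked ribosomal protein genes and none of the 22 proteasome genes was called, and 32 and 18 of them lay within 5 points. The widest ribosomal gap was that of RPL22, at percentiles 89.8 and 98.6. Ribosomal protein transcripts made up 13.5% to 14.2% of the summed FPKM of paired genes in MDA-MB-231 and 15.6% to 16.3% in CT26. The sums include the 6 mitochondrial genes that were listed at 0 in CT26 and very abundant in MDA-MB-231, so the shares are not directly comparable. Of the 24 ranked nuclear genes of the respiratory chain 1 (UQCRFS1) was called, higher in CT26. Of the mitochondrial genome's own genes the 6 that were not listed at 0 in CT26 all lay within 5 points. Genes so near the top of both rankings cannot meet the call, and a difference in level could go unseen there.

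**Figure D5:**
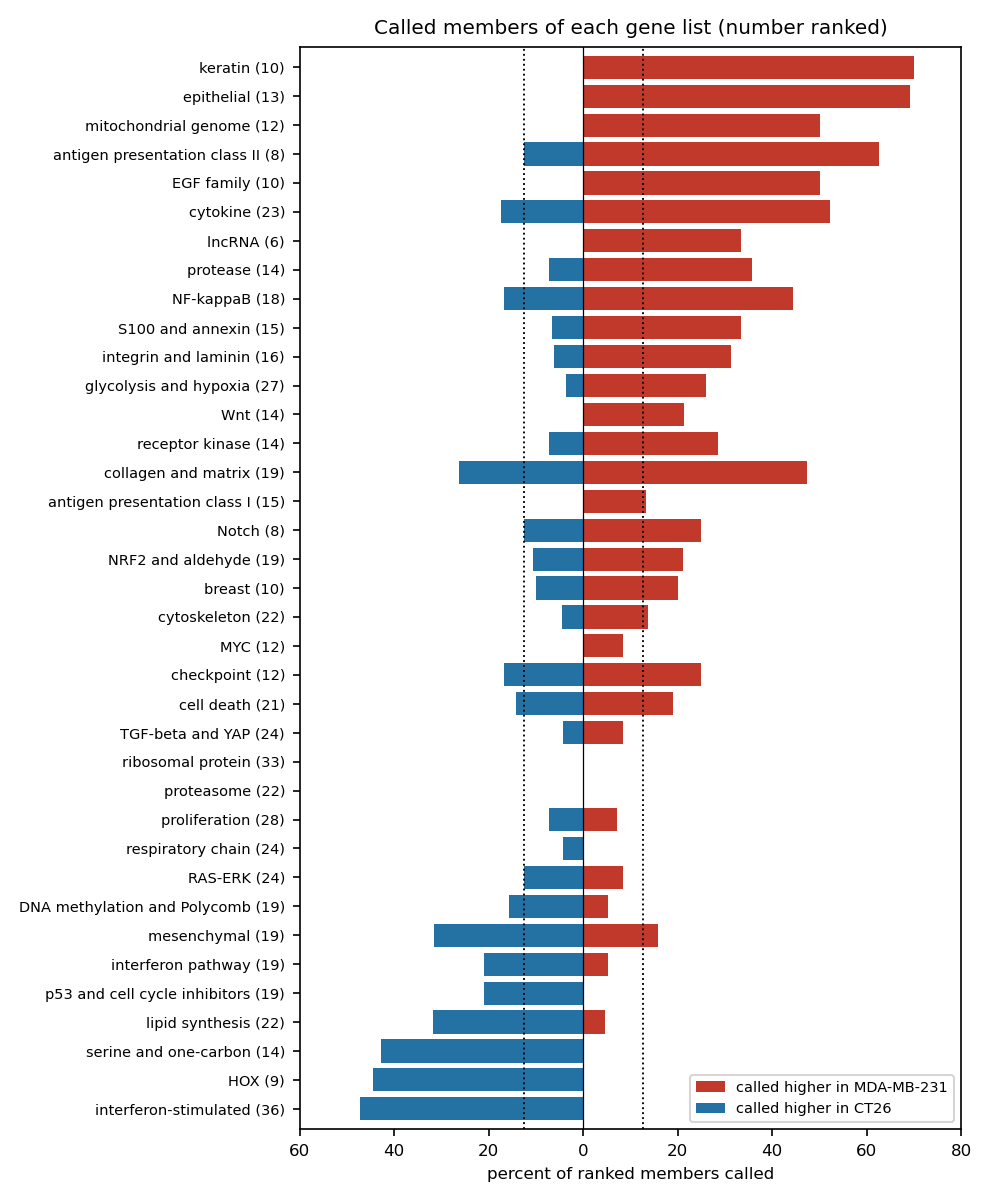
Percent of the ranked members of each gene list that were called higher in wild type MDA-MB-231 (bars to the right) and in wild type CT26 (bars to the left), with the number ranked after each name and dotted lines at the background of 12.6% and 12.5%. Among lists with at least 5 ranked members the keratin (70.0%) and epithelial (69.2%) lists reach furthest to the right, the interferon-stimulated list (47.2%) reaches furthest to the left, and the ribosomal protein and proteasome lists have no bar. Only 4 of 10 ranked keratin and 1 of 13 ranked epithelial genes were at 1 FPKM or more in all 8 libraries, which limits calls for CT26.

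Among 25 cytoskeleton genes 22 were ranked, 3 were called higher in MDA-MB-231 and 1 in CT26. FSCN1 (fascin, an actin bundler of filopodia) stood at 361, 353, 349 and 388 FPKM in CT26 and 10.99, 10.6, 11.4 and 11.5 in MDA-MB-231, and MYL9, a myosin light chain of contractile cells, at 153, 156, 146 and 144 FPKM in MDA-MB-231 and at most 0.0575 in CT26. TMSB4X, an actin-sequestering thymosin, was called higher in MDA-MB-231, but its CT26 value of 1.35 ± 0.235 FPKM (SD, n = 4) is uncertain, since the gene has near-identical copies. CFL1 (cofilin) and PFN1 (profilin) lay between ranks 44 and 85.

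Other regulators were spread over both directions. Of 24 HOX genes 15 were below the filter and 9 were ranked. HOXA9, HOXA10, HOXC6 and HOXD8 (44.4%, beside a background of 12.5%) were called higher in CT26 and none in MDA-MB-231. Only 1 of the 9 was at 1 FPKM or more in all 8 libraries, and none of the 4 called genes was. The filter let in genes at 1 FPKM or more in CT26 alone, which could hardly be called for MDA-MB-231. HOXA9 stood at 24.2, 24.9, 22.5 and 22.4 FPKM in CT26 and at most 0.0255 in MDA-MB-231. The oncofetal RNA-binding proteins of the IGF2BP family were split, with IGF2BP1 at 46.4, 50.9, 43.7 and 49.2 FPKM in CT26 and at most 0.0396 in MDA-MB-231, and IGF2BP3 at 13.4, 14.3, 15.6 and 13.4 FPKM in MDA-MB-231 and at most 0.173 in CT26. Every library of one line lay above every library of the other for both. UHRF1, the partner of the maintenance methyltransferase, was higher in CT26, at percentiles 91.1 and 62.5, and DNMT1 itself was not called. In the TGF-beta and YAP list 21 of 24 genes were not called. TGFBI, a secreted target of TGF-beta, stood at 182, 205, 199 and 199 FPKM in MDA-MB-231 and at most 0.112 in CT26, and ID2, an inhibitor of helix-loop-helix factors, had the opposite order, at percentiles 17.9 and 70.04. Among Wnt and Notch genes WNT7B and the ligand JAG1 were higher in MDA-MB-231, at 24.2 ± 1.19 and 21.7 ± 1.87 FPKM (SD, n = 4) and no more than 0.111 and 0.0120 FPKM in CT26, and CTNNB1 (beta-catenin) was not called.

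Of 21 ranked cell death genes 4 were called higher in MDA-MB-231 and 3 in CT26. These counts were only a little above the background shares of 12.6% and 12.5%, so the list as a whole did not stand out. FADD, the adaptor of death receptors, and TNFRSF10B, a TRAIL receptor, were higher in MDA-MB-231, at percentiles 70.6 and 80.7 against 24.8 and 38.2. MLKL, the executor of necroptosis, and BAK1 were higher in CT26, at 76.1 and 90.3 against 30.01 and 55.4. Of 6 ranked long noncoding RNAs 2 were called, both in favour of MDA-MB-231: NEAT1, the scaffold of paraspeckles, at 384, 322, 334 and 310.4 FPKM against 17.6, 19.9, 22.4 and 17.4, and MALAT1 at 85.6, 85.7, 79.95 and 65.5 against 14.5, 16.5, 19.8 and 16.5. The gap of MALAT1 was -12.4 points in the knockout libraries.

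The order between the lines was then read in the knockout libraries, ranked over the same genes. Of the 1340 genes called higher in wild type MDA-MB-231, 811 (60.5%) were called so again and 6 were called in the other direction. Of the 1328 called higher in wild type CT26, 864 (65.1%) were called again and none in the other direction. Spearman's rho between the lines was 0.660 there. Among other lists, the knockout libraries gave 5 calls for MDA-MB-231 and 6 for CT26 in glycolysis and hypoxia, 5 and 1 in keratins, 3 and 3 in S100 and annexin genes, 0 and 1 in the receptor kinases and 1 and 3 in checkpoint ligands. Among the genes named here whose gap changed sign were IL6, CD74, CTSS, MUC1, TFF1, ERRFI1, EGLN3, ANXA8, MALAT1 and PYCARD, an inflammasome adaptor at 14.8 ± 1.02 FPKM in wild type MDA-MB-231 (SD, n = 4). All 10 had been called higher in MDA-MB-231. The order of these 10 genes therefore differed between the wild type and the knockout libraries, and the difference was not tested.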

How the data were processed

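RNA-seq of 16 libraries was deposited as 1 table per line, of which the 8 wild type columns were used, 4 per line. The authors made the values with bcl2fastq 2.18, STAR 2.5.4a, Cufflinks 2.2.1 and Cuffdiff on hg38 and mm10, per the submitters' processing notes. Which gene annotation was used, whether counting was stranded and how Cuffdiff was set are not given here by any label. The deposited unit is FPKM, normalized within each table.

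Rows flagged as having too much data to estimate (HIDATA, 13 and 210 rows) and symbols turned into calendar dates (27 in each table) were left out. Symbols found once in both tables after capitalization gave 16491 pairs, of which 10628 reached 1 FPKM in at least 4 of the 8 libraries and were ranked in each library. The same symbol does not ensure an orthologue, and genes whose symbols differ between species were not analysed here. Percentile, overlap and mean were computed with Python 3.11.15, numpy 2.4.6, pandas 2.3.3 and scipy 1.17.1, and the procedure was tested on simulated data. Human positions are from GENCODE 29. Depth was derived from the step that 1 fragment makes in low FPKM values. The library comparison, the 41 gene lists and the naming rule were chosen with earlier results of these data known. Named genes were the 15 largest gaps in each direction, the 12 highest genes of each line and the 10 highest in both, beside the line and cell type markers. Per list, up to 6 members with the largest gaps, called or not, and up to 3 abundant uncalled ones were added. Alternatives were other filters, thresholds and scales, leaving out each library, and the knockout libraries. A few list members are counted but not reported by name here.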

Additional observations from a re-analysis of the deposited data

Results flagged for a closer look

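Among 439 groups of 4 values (each named gene in each line), 33 held a library whose distance to its nearest neighbour took up more of the group's range than Dixon's critical value for 4 samples allows, where chance flags about 1 in 20. In 13 of these the ratio was 1.0, because 3 libraries were listed at 0 and the other was just above: CLDN4, CSF2, CSF3, DSP, JAG1, LOXL2, MYL9 and S100A2 in CT26, and FOXA1, HOXA9, KRT20, SPP1 and TWIST1 in MDA-MB-231.

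Among genes well above 0 the ratio was 0.884 for CD34, 0.857 for HMGCS1, 0.831 for HOXA10, 0.833 for LDHA, 0.906 for TWIST2 and 0.843 for ZBP1 in CT26. In MDA-MB-231 it was 0.878 for CTSD, 0.855 for EGLN3, 0.896 for JAG1, 0.926 for KRT17, 0.836 for MKI67, 0.885 for NQO1, 0.839 for PHLDA3, 0.833 for RFXAP and 0.841 for SESN2. The lowest and highest libraries of MKI67 were at 57.8 and 75.2 FPKM. At levels below 1 FPKM the ratio was 0.861 for ALDH1L2, 0.871 for ESR1, 0.833 for IGF2BP1 and 0.918 for NEFM in MDA-MB-231 and 0.865 for OCIAD2 in CT26.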

How the results depend on the processing

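Leaving out each library in turn gave 1333 to 1348 genes called higher in MDA-MB-231, 1325 to 1335 in CT26, 213 to 216 called list members and a Spearman's rho of 0.625 to 0.626. The rho of 0.626 between the lines was 0.800 with no filter on low values, 0.536 with a filter of 5 FPKM, 0.667 with 1 FPKM in all 8 libraries, 0.669 with status OK in both tables, 0.660 in the knockout libraries and 0.647 without genes listed at 0 in a line. A threshold of 10 points called 3020 and 3293 genes (359 list members) and one of 40 points 603 and 502 (136 list members). The log2 scale with a pseudocount of 0.1 called 2095 in favour of MDA-MB-231, and 138 list members were called with 1 FPKM in all 8 libraries. Of the 186 called genes that the naming rule picked, none changed direction under the filters, thresholds, scales and left-out libraries, but 147 kept their call with no filter and 135 at 40 points. With no filter 806 of 1340 and 629 of 1328 calls were kept, and 11 of the interferon-stimulated genes were called in place of 17. With the knockout libraries in place of the wild type, 10 did: ANXA8 (-34.0 points), CD74 (-2.30), CTSS (-0.395), EGLN3 (-5.71), ERRFI1 (-9.69), IL6 (-3.76), MALAT1 (-12.4), MUC1 (-8.67), PYCARD (-4.53) and TFF1 (-4.11), and the cause was not tested. Leaving out genes listed at 0, or mitochondrially encoded genes, was added after seeing the data, and gave 1218 and 1191, or 1340 and 1323 calls. No paired analysis was possible because no test was made between the lines, whose libraries share only a number. Genes under 1 FPKM rest on few fragments.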

Other observations

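Single libraries rarely stood far from the others of their line. Among the ranked genes, 3 were at least 10 times above the other 3 libraries (each at 1 FPKM or more), all in MDA-MB-231: PIGA in the third library and CEP97 and IFITM1 in the fourth. A single library at least 10 times lower was found 14 times, in 13 of them with the gene listed at 0 there, and most of these genes were small nucleolar RNAs. None of these genes was a member of the lists except IFITM1, and they are named here after their values were seen.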
